A study of Mus musculus with 8 samples.

Results

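Type I interferon-stimulated antiviral genes were examined in the pregnant mouse uterus after injection of diphtheria toxin (DT) meant to remove regulatory T cells. The group comprised 38 genes listed by symbol, and each symbol was matched through the GENCODE mouse M21 annotation to 1 Ensembl ID of the count table. All 38 were found among the 49585 genes of the table, and all 38 passed the filter on low counts together with 22693 genes in all. No measured value was used to choose them, although results of these data were already known when the list was drawn up.

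The samples were whole uteri with the conceptuses still inside, 1 library per female, taken on day E8 of pregnancy from 8-week-old Foxp3DTR females mated with BALB/c males. In these mice the toxin receptor is expressed from the Foxp3 locus, so any cell that expresses Foxp3, which specifies regulatory T cells, is a target of the toxin. Per the labels' protocols, 4 females (DT replicates 1, 3, 4 and 5) received 1 µg of toxin into the peritoneum on days E1, E3, E5 and E7, although the same text calls the injections daily, and 4 females (PBS replicates 1, 2, 4 and 6) received PBS, and the regimen is described there as removing 85% of regulatory T cells. The PBS females carried the receptor too, so both groups shared genotype, cross and injection days and differed in the injected agent. Toxin-treated females without the receptor were not analysed here. The protocols give 4 females in each group, and each library was taken as 1 animal. The comparison addressed what depletion of regulatory T cells changes in uterine gene expression after implantation.

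Type I interferons are cytokines released by cells that sense foreign or misplaced nucleic acid. They bind the receptor made of IFNAR1 and IFNAR2, which activates the kinases JAK1 and TYK2. These act on STAT proteins and lead to ISGF3, a complex that holds STAT2 and IRF9 and binds the interferon-stimulated response element in the promoters of target genes. The targets include sensors of viral RNA, enzymes that degrade it or block its translation, and proteins that hinder viral entry or release. Interferon-gamma, the type II interferon made by T cells and natural killer cells, acts through its own receptor and another promoter element and induces an overlapping set of genes. In the pregnant uterus, natural killer cells, macrophages, decidual stroma and trophoblast all can respond to interferons.

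Depth did not differ much between libraries, but composition did. Total counts ran from 94794512 to 109847604, a 1.16-fold spread, and mitochondrially encoded genes took 2.17 to 2.49% of counts. Levels are given as CPM, counts relative to the library total after scaling by TMM factors, which ran from 0.889 to 1.17, the highest in DT replicate 1. Throughout, values are listed for DT replicates 1, 3, 4 and 5 and then for PBS replicates 1, 2, 4 and 6. Foxp3 itself measured 5.12, 5.10, 5.72 and 5.69 CPM in the first group and 4.89, 4.36, 5.44 and 4.86 CPM in the second. The groups overlapped, Foxp3 was not lower after the toxin (edgeR log2 fold change 0.15, adjusted p = 0.595), and the libraries are therefore called DT-labelled and PBS-labelled. Decidual and smooth muscle genes, which mark the labelled tissue, were abundant in every library: the 8 decidual genes summed to 4229 to 13850 CPM and the 6 smooth muscle genes to 3812 to 4836 CPM. Embryonic globins, 3 genes, summed to 40.9 and 308 CPM in PBS-labelled replicates 1 and 2 and to at most 0.495 CPM in the other 6 libraries, and 8 trophoblast genes summed to 158 and 419 CPM there against 8.7 to 42.8 CPM. DT-labelled replicate 1 held the least decidual RNA, 4229 CPM against 8026 to 13850 CPM elsewhere. In the library titles, replicates 1 and 2 of PBS, 4 and 6 of PBS, 1 and 3 of DT and 4 and 5 of DT each share a suffix whose meaning is not given, and since each suffix holds samples of 1 group, it cannot be told apart from treatment.

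Many promoters of the 38 genes hold the letters of the element that ISGF3 binds. RefSeq promoter windows of GRCm38.p6, 250 bases before to 50 bases after the gene's start, were found for 29 of the 38 genes. No window was found for Dhx58, Zbp1, Oas2, Usp18, Mx1, Mx2, Parp9, Parp14 and Rtp4. The letters GAAANNGAAA, the core of the response element read on either strand with overlaps allowed, occurred in 14 of the 29 windows (48.3%), against 3.99% of 27025 genes with a window. The longer form GAAANNGAAACT, whose matches are also matches of the core, occurred in 8 of 29 (27.6%), against 0.303% of all genes. The 200 bases before the start are printed below for 5 genes with a core match and for Sp100, the 1 gene of the group that passed the test. They read 5′ to 3′ along the gene's own strand, and capitals mark every core match, which begins with TTTC where it lies on the opposite strand.
Ifit3: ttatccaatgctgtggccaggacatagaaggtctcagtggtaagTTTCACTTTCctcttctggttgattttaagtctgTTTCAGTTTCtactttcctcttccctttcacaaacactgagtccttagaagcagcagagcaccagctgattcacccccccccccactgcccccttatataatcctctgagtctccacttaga
Ifit3b: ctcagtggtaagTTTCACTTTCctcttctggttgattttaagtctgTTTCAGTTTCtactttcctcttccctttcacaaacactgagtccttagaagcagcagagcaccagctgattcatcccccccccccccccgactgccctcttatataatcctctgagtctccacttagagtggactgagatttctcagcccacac
Isg15: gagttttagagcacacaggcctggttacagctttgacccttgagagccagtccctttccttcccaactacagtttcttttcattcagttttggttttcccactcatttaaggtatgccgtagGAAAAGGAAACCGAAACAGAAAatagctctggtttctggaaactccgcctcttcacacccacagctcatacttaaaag
Oas1a: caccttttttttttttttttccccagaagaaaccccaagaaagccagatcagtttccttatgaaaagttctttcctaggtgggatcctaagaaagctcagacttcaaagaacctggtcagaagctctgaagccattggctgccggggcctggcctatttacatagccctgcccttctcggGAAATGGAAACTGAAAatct
Bst2: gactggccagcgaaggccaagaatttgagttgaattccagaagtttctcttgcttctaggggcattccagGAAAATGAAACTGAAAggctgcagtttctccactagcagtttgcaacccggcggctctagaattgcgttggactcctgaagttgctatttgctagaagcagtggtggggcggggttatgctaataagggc
Sp100: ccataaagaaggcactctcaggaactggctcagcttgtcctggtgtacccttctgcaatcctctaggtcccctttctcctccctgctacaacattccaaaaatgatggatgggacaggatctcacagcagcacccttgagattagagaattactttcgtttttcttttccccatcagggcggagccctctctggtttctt
These stretches lie at chr19:34583329-34583528, plus strand (Ifit3), chr19:34607757-34607956, plus strand (Ifit3b), chr4:156200819-156201018, minus strand (Isg15), chr5:120907526-120907725, minus strand (Oas1a), chr8:71537473-71537672, minus strand (Bst2) and chr1:85649788-85649987, plus strand (Sp100), and none overlaps a GENCODE exon. The neighbours Ifit3 and Ifit3b hold the same pair of matches with the same bases between them, beginning 156 and 122 bases before the start in Ifit3 and 188 and 154 bases before it in Ifit3b. In Isg15, 3 overlapping matches begin 78, 72 and 66 bases before the start. Oas1a has its matches at 20 and 14 bases and Bst2 at 130 and 124 bases. The Sp100 stretch holds no match, which says only that these letters are not in it.

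All 38 genes had a higher fitted level in the DT-labelled uteri, and 1 of them, Sp100, rose past the threshold. Log2 fold changes (DT minus PBS, from edgeR's quasi-likelihood fit of all 22693 genes) ran from 0.00 for Trim25 to 1.49 for Zbp1 with a median of 0.49, while the median over all genes tested was 0.01. Positive values were found for 38 of 38, against 51.4% of all genes. At a Benjamini-Hochberg adjusted p under 0.05, 1 of 38 was higher, against a background of 0.322% of all genes, and 0 were lower, against 0.00441%. At an unadjusted p under 0.05, 21 were higher (4.72% of all genes) and 0 lower (3.98%). In 5 genes (Sp100, Irf7, Oas2, Dtx3l and Bst2) every DT-labelled library lay above every PBS-labelled library, as it did for 3.33% of all genes, and in 0 every DT-labelled library lay below, as for 1.73%. The members vary together from library to library, so their 38 signs are not 38 separate observations.

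**Figure D1:**
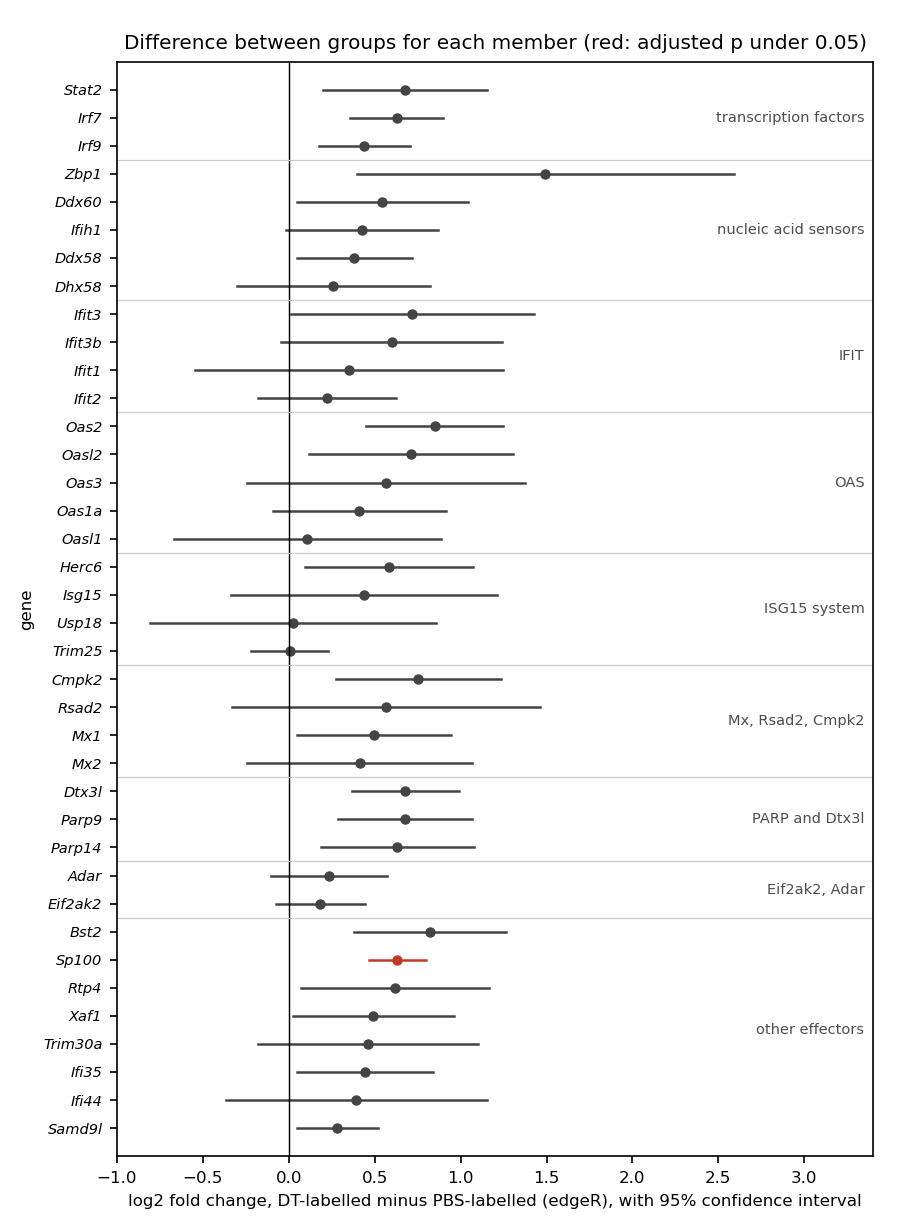
Log2 fold change (DT-labelled minus PBS-labelled, edgeR) of each of the 38 genes on the x axis, with bars for the 95% confidence interval (n = 4 libraries per group) and genes grouped by role. Every point lies at or to the right of 0, from 0.00 (Trim25) to 1.49 (Zbp1), and Sp100, in red, is the gene with an adjusted p under 0.05.

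How many passed depended on the tool. DESeq2 called 6 of the 38 higher (Sp100, Oas2, Irf7, Bst2, Dtx3l and Parp9; background 1.06%), and limma voom called 1, Sp100 (0.225%). RLE scaling, no low-count filter, a minimum mean of 1 CPM and a fit without robust estimation each called Sp100 alone, against 0.278%, 0.182%, 0.444% and 0.348% of genes. Scaling by library size alone moved the median of all genes from 0.01 to 0.12 and called 7, adding Irf9 to the 6 of DESeq2 (0.344%). A limma fit that weights libraries by their scatter, chosen after the data were seen, called 8, adding Stat2 and Irf9 to those 6 (0.899%). Without DT-labelled replicate 1, edgeR called 8 (Sp100, Oas2, Bst2, Dtx3l, Parp9, Ifi35, Irf9 and Stat2; 0.502%) and their median log2 fold change was 0.67. Without PBS-labelled replicate 4 it called Sp100 (0.187%), and without any 1 of the other 6 libraries it called 0 of the 38 and 0 genes higher in all. At an unadjusted p under 0.05, 11, 15 and 11 of the 38 were higher without DT-labelled replicates 3, 4 and 5 (4.43%, 3.24% and 5.25% of all genes) and 14, 23 and 13 without PBS-labelled replicates 1, 2 and 6 (3.2%, 3.34% and 4.45%). Without PBS-labelled replicates 1 and 2 together it called 0 of the 38, with 23 at an unadjusted p under 0.05 (2.92%).

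Sp100 (ENSMUSG00000026222, chromosome 1, 85649988 to 85709998, plus strand), a scaffold protein of nuclear bodies that restrict viral DNA, gave the clearest separation. It measured 46.2, 51.6, 49.4 and 52.3 CPM in the DT-labelled and 31.7, 34.6, 29.03 and 33.4 CPM in the PBS-labelled libraries. All 4 DT-labelled libraries lay above all 4 PBS-labelled ones, DT-labelled replicate 1 included. Sp100 rose 1.55-fold, a log2 fold change of 0.63 ± 0.07 (SE, 95% confidence interval 0.47 to 0.80; edgeR adjusted p = 0.0259). With 1 library left out the estimate stayed between 0.59 and 0.67, and the edgeR adjusted p lay between 0.0122 and 0.13, above 0.05 in each of the 6 fits that dropped 1 library other than DT-labelled replicate 1 or PBS-labelled replicate 4.

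Among the transcription factors of the response, Irf7 (ENSMUSG00000025498, chromosome 7, 141262706 to 141266481, minus strand), the factor that amplifies type I interferon production, measured 71.5, 87.8, 82.6 and 93.8 CPM in the DT-labelled and 54.2, 63.2, 54.3 and 45.5 CPM in the PBS-labelled libraries. The 2 groups did not overlap, and the lowest DT-labelled value was again replicate 1. The log2 fold change was 0.63 ± 0.12 (SE, 95% confidence interval 0.36 to 0.90), which did not pass by edgeR (adjusted p = 0.114) and passed by DESeq2 (adjusted p = 0.00168). Stat2 and Irf9, which encode parts of ISGF3, had log2 fold changes of 0.68 ± 0.21 and 0.44 ± 0.12 (SE), with edgeR adjusted p values of 0.475 and 0.36. For Stat2 the libraries fell into a high set, DT-labelled replicates 3, 4 and 5 at 113 to 122 CPM, and the rest at 52.6 to 77.5 CPM, where DT-labelled replicate 1 (65.5 CPM) also lay. Of the 3 factors, 0 passed by edgeR and 3 had an unadjusted p under 0.05. For this and the following roles, the shares of all genes that were higher at these thresholds were 0.322% and 4.72%.

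The nucleic acid sensors held the largest difference of the group, in Zbp1 (ENSMUSG00000027514, chromosome 2, 173206612 to 173218923, minus strand), which senses Z-form nucleic acid and can trigger cell death. Zbp1 measured 12.5, 48.9, 35.8 and 54.02 CPM in the DT-labelled and 16.3, 19.6, 6.68 and 11.1 CPM in the PBS-labelled libraries. DT-labelled replicates 3, 4 and 5 lay above every PBS-labelled library, while replicate 1 lay inside the PBS range. Its log2 fold change of 1.49 ± 0.48 (SE, 95% confidence interval 0.39 to 2.59) did not pass (edgeR adjusted p = 0.504). Ddx58 (ENSMUSG00000040296, chromosome 4, 40203773 to 40239828, minus strand) encodes RIG-I, a sensor of viral RNA ends. It measured 52.5, 74.97, 68.1 and 76.2 CPM in the DT-labelled and 56.2, 60.1, 42.2 and 50.3 CPM in the PBS-labelled libraries. Again only DT-labelled replicate 1 lay within the PBS-labelled range, and the log2 fold change of 0.38 ± 0.15 (SE) did not pass (edgeR adjusted p = 0.558). Ifih1, a sensor of long double-stranded RNA, Dhx58, a related helicase that modulates both sensors, and Ddx60, another helicase of this group, had log2 fold changes of 0.43, 0.26 and 0.55. Of the 5 sensors, 0 passed by edgeR, 3 had an unadjusted p under 0.05, and the median log2 fold change was 0.43.

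The IFIT genes, whose proteins bind foreign RNA and block its translation, lie in a row on chromosome 19 in the order Ifit2, Ifit3, Ifit3b and Ifit1. Ifit3 (ENSMUSG00000074896, chromosome 19, 34583531 to 34588731, plus strand) measured 10.6, 23.8, 17.2 and 25.3 CPM in the DT-labelled and 11.9, 15.6, 7.31 and 11.8 CPM in the PBS-labelled libraries, which gave a log2 fold change of 0.72 ± 0.31 (SE; adjusted p = 0.571 by edgeR). Ifit3b (ENSMUSG00000062488, chromosome 19, 34607970 to 34613401, plus strand) measured 3.31, 6.36, 4.83 and 6.33 and 3.22, 4.58, 2.12 and 3.84 CPM in the same order, a log2 fold change of 0.60 ± 0.28 (SE; adjusted p = 0.571 by edgeR). In both genes DT-labelled replicates 3, 4 and 5 were above every PBS-labelled library, and replicate 1 was not. The copies are nearly identical: 41.1% of the 75-base windows of Ifit3 exons and 35.7% of those of Ifit3b occur in the exons of another gene, so their counts could not be separated with certainty. Ifit1 and Ifit2 had log2 fold changes of 0.35 ± 0.39 and 0.22 ± 0.18 (SE). Ifit1 was lower in DT-labelled replicate 1 (15.6 CPM) than in any PBS-labelled library (17.4 to 41.2 CPM) and reached 54.3 CPM in DT-labelled replicate 5. Of the 4 IFIT genes, 0 passed by edgeR and 1 had an unadjusted p under 0.05.

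The OAS proteins make the messenger that activates the RNA-degrading enzyme RNase L, and the OASL proteins are related to them. Oas2 (ENSMUSG00000032690, chromosome 5, 120730333 to 120749853, minus strand) measured 34.3, 57.6, 48.5 and 56.9 CPM in the DT-labelled and 27.6, 31.1, 22.3 and 28.5 CPM in the PBS-labelled libraries. Every DT-labelled library was above every PBS-labelled one, and the log2 fold change was 0.85 ± 0.17 (SE, 95% confidence interval 0.45 to 1.25). It did not pass by edgeR (adjusted p = 0.159) and passed by DESeq2 (adjusted p = 0.00399). Oasl2 (ENSMUSG00000029561, chromosome 5, 114896936 to 114912234, plus strand) measured 68.3, 128, 112 and 137 CPM in the DT-labelled and 73.5, 88.1, 44.4 and 65.96 CPM in the PBS-labelled libraries, which gave a log2 fold change of 0.71 ± 0.26 (SE; adjusted p = 0.547 by edgeR). Here DT-labelled replicate 1 fell between PBS-labelled replicates 6 and 1, and the other 3 DT-labelled libraries stood above all PBS-labelled ones. Oas3, Oas1a and Oasl1 had log2 fold changes of 0.56, 0.41 and 0.11, and Oas1a shares 47.6% of its windows with another gene, mostly its copy Oas1g. Of the 5, 0 passed by edgeR and 2 had an unadjusted p under 0.05.

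In the ISG15 system, Isg15 is a ubiquitin-like tag, Herc6 the ligase that attaches it in mice, and Usp18 the protease that removes it and also dampens the type I receptor. Isg15 (ENSMUSG00000035692, chromosome 4, 156199424 to 156200818, minus strand) measured 13.9, 36.1, 30.1 and 42.5 CPM in the DT-labelled and 24.8, 29.7, 15.2 and 20.7 CPM in the PBS-labelled libraries. DT-labelled replicate 1 was the lowest of all 8 libraries and DT-labelled replicate 5 the highest, and the log2 fold change of 0.44 ± 0.34 (SE) had an edgeR adjusted p of 0.614. Herc6 (ENSMUSG00000029798, chromosome 6, 57581000 to 57664632, plus strand) measured 14.5, 26.9, 23.6 and 28.9 CPM in the DT-labelled and 15.2, 18.9, 12.9 and 15.8 CPM in the PBS-labelled libraries, which gave a log2 fold change of 0.58 ± 0.21 (SE; adjusted p = 0.549 by edgeR), and 11.3% of its windows occur in another gene. DT-labelled replicates 3, 4 and 5 of Herc6 lay above the PBS-labelled range and replicate 1 inside it. Trim25 (ENSMUSG00000000275, chromosome 11, 88999376 to 89020293, plus strand), a ubiquitin ligase that activates RIG-I signalling, measured 130.1, 158, 137 and 165 CPM in the DT-labelled and 137, 161, 139 and 152 CPM in the PBS-labelled libraries. The DT-labelled values spanned the PBS-labelled range on both sides, and the log2 fold change of 0.00 ± 0.10 (SE, 95% confidence interval -0.22 to 0.23) was the smallest of the 38 and was negative under RLE scaling. Usp18 followed with 0.03 ± 0.36 (SE). Of the 4 genes, 0 passed by edgeR, 1 had an unadjusted p under 0.05, and the median was 0.23.

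Mx1 and Mx2 belong to a family of dynamin-like GTPases that can trap viral components, and whether these mice make working Mx proteins was not tested. Rsad2 encodes viperin, which makes a chain-terminating nucleotide, and Cmpk2 is a nucleotide kinase encoded beside Rsad2. Cmpk2 (ENSMUSG00000020638, chromosome 12, 26469204 to 26479837, plus strand) measured 8.29, 15.1, 12.5 and 15.6 CPM in the DT-labelled and 7.08, 8.94, 6.25 and 8.23 CPM in the PBS-labelled libraries, and its log2 fold change was 0.75 ± 0.21 (SE; adjusted p = 0.396 by edgeR). Mx1 (ENSMUSG00000000386, chromosome 16, 97447035 to 97462907, minus strand) measured 3.05, 5.04, 3.83 and 4.52 CPM and 2.79, 3.77, 2.51 and 2.59 CPM in the same order, and its log2 fold change was 0.50 ± 0.20 (SE; adjusted p = 0.558 by edgeR). In both genes the groups overlapped through DT-labelled replicate 1 and PBS-labelled replicate 2. Mx2 and Rsad2 had log2 fold changes of 0.41 ± 0.29 and 0.56 ± 0.39 (SE). Of the 4, 0 passed by edgeR and 2 had an unadjusted p under 0.05.

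Parp9 and Dtx3l encode a mono-ADP-ribosyltransferase and a ubiquitin ligase that work as 1 complex, and their genes overlap head to head on chromosome 16 beside Parp14. Dtx3l (ENSMUSG00000049502, chromosome 16, 35926511 to 35939151, minus strand) measured 53.8, 75.2, 71.2 and 80.04 CPM in the DT-labelled and 46.3, 48.4, 36.9 and 43.7 CPM in the PBS-labelled libraries. No DT-labelled value fell into the PBS-labelled range. The log2 fold change of 0.68 ± 0.14 (SE, 95% confidence interval 0.37 to 0.99) did not pass by edgeR (adjusted p = 0.147) and passed by DESeq2 (adjusted p = 0.00525). Parp9 (ENSMUSG00000022906, chromosome 16, 35938470 to 35972605, plus strand) measured 48.99, 76.3, 72.95 and 82.5 CPM in the DT-labelled and 46.9, 50.3, 36.2 and 42.2 CPM in the PBS-labelled libraries. DT-labelled replicate 1, just below PBS-labelled replicate 2, was the single overlap, and the log2 fold change was 0.68 ± 0.17 (SE; adjusted p = 0.305 by edgeR). Parp14, a relative of Parp9, had a log2 fold change of 0.63 ± 0.19 (SE). Dtx3l and Parp9 share 6.72% and 6.63% of their windows with other genes, and the strand setting of the counting is not given in the sources used here, so reads from their overlap could not be placed. All 3 genes had an unadjusted p under 0.05, and 0 passed by edgeR.

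Eif2ak2 and Adar act on translation and on RNA itself: Eif2ak2 encodes PKR, the kinase that halts translation on double-stranded RNA, and Adar the enzyme that edits such RNA. Eif2ak2 (ENSMUSG00000024079, chromosome 17, 78852564 to 78882573, minus strand) measured 56.3, 67.7, 61.3 and 68.7 CPM in the DT-labelled and 55.2, 66.8, 47.2 and 54.3 CPM in the PBS-labelled libraries. PBS-labelled replicate 2 was nearly as high as the highest DT-labelled library, and the log2 fold change of 0.18 ± 0.11 (SE, 95% confidence interval -0.08 to 0.45) had an edgeR adjusted p of 0.577. Adar, with 13.1% of its windows in another gene, mostly Chrnb2, had a log2 fold change of 0.23 ± 0.15 (SE). Neither had an unadjusted p under 0.05.

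Among the other effectors, Bst2 (ENSMUSG00000046718, chromosome 8, 71534255 to 71537456, minus strand) encodes tetherin, a membrane protein that holds budding virus on the cell. Bst2 measured 53.5, 89.4, 79.7 and 101 CPM in the DT-labelled and 50.03, 52.4, 37.9 and 42.6 CPM in the PBS-labelled libraries. The groups did not overlap, although DT-labelled replicate 1 exceeded PBS-labelled replicate 2 by little. The log2 fold change of 0.82 ± 0.19 (SE, 95% confidence interval 0.38 to 1.27) did not pass by edgeR (adjusted p = 0.254) and passed by DESeq2 (adjusted p = 0.0194). Rtp4, Xaf1, Trim30a, Ifi35, Ifi44 and Samd9l had log2 fold changes of 0.62, 0.49, 0.46, 0.44, 0.39 and 0.28, and Rtp4 shares 10.5% of its windows with another gene. Of the 8 genes of this group, Sp100 included, 1 passed by edgeR and 6 had an unadjusted p under 0.05.

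The most even feature of the 38 genes was their order across libraries. DT-labelled replicate 1 was the lowest of its group for 38 of 38 genes, against 39.1% of all genes tested. PBS-labelled replicate 4 was the lowest of its group for 36 of 38 (31.1% of all genes) and PBS-labelled replicate 2 the highest for 37 of 38 (26.4%). The full order 5, 3, 4, 1 from high to low among the DT-labelled libraries was seen in 31 genes (18.4% of all genes), and the order 2, 1, 6, 4 among the PBS-labelled libraries in 26 (12.8%). Both orders held at once in 22 genes (5.57%). The orders and extremes counted here are those of the medians of the same 38 genes, given below. The counts therefore describe how alike the 38 genes are, and the shares of all genes beside them are no test.

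**Figure D2:**
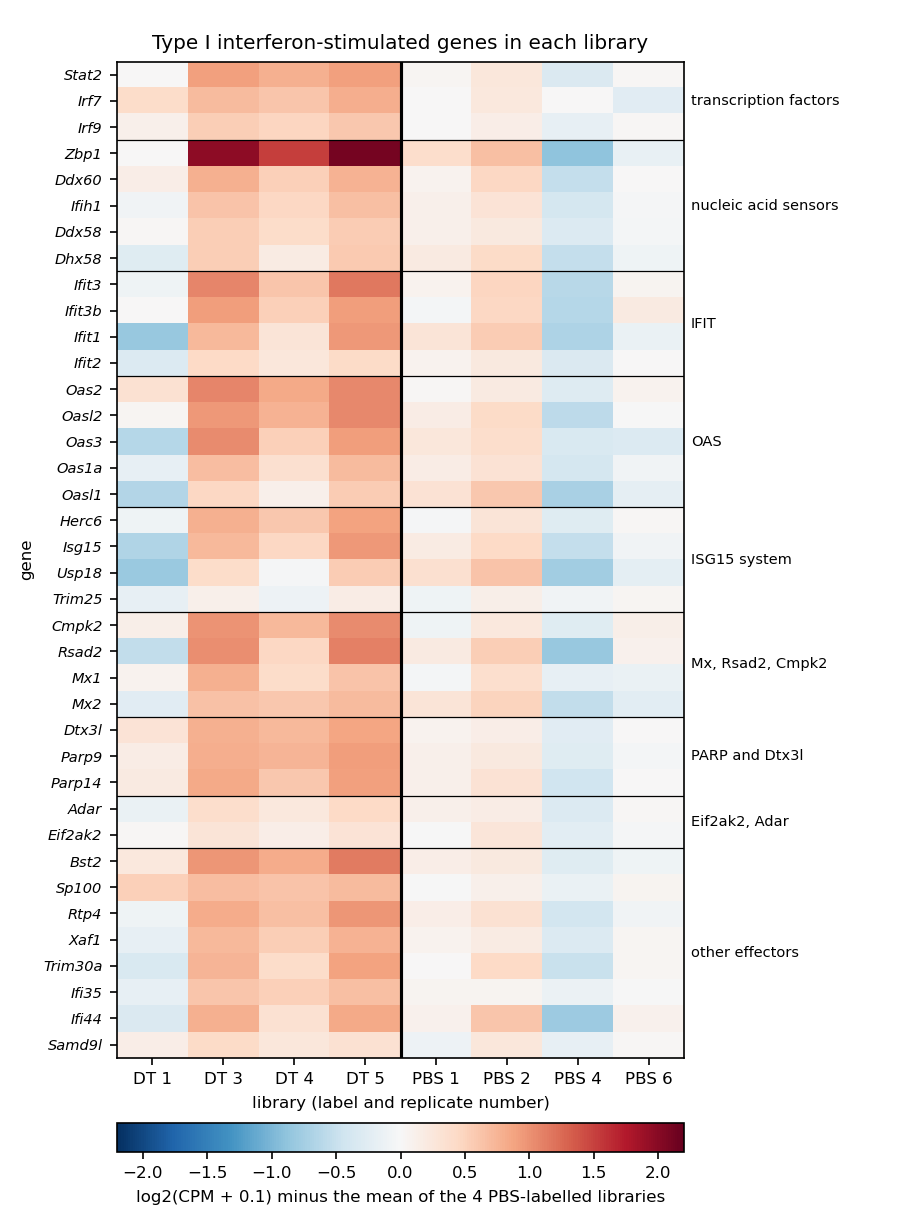
Heat map of log2(CPM + 0.1) of the 38 genes (rows, by role) in the 8 libraries (columns), each minus the mean of the 4 PBS-labelled libraries. DT-labelled replicates 3, 4 and 5 are red in nearly every row, DT-labelled replicate 1 is pale or blue in most, and PBS-labelled replicates 2 and 4 are the reddest and bluest of their group.

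Measured against the mean of the PBS-labelled libraries, the median of the 38 genes was -0.09, 0.73, 0.53 and 0.82 on the log2 scale in DT-labelled replicates 1, 3, 4 and 5. The same median was 0.09, 0.31, -0.33 and 0.00 in PBS-labelled replicates 1, 2, 4 and 6. DT-labelled replicates 3, 4 and 5 therefore stood above all PBS-labelled libraries, and replicate 1 stood between PBS-labelled replicates 4 and 6. Gene by gene, DT-labelled replicate 1 was above the PBS-labelled range for 5 genes (as were 31.8% of all genes), within it for 27 and below it for 6. DT-labelled replicate 3 was above the range for 35 genes (13.5% of all genes), replicate 4 for 29 (20.8%) and replicate 5 for 36 (14.8%). DT-labelled replicate 1 and PBS-labelled replicates 1 and 2 were also left out together, a choice made after the data were seen. They had the lowest median of the DT-labelled group and the highest medians of the PBS-labelled group, so their removal by itself widens the difference. The median log2 fold change was then 0.90, and 37 of 38 genes had an unadjusted p under 0.05 (4.32% of all genes were higher at that threshold). In this fit edgeR called 4 higher (Bst2, Ifi35, Dtx3l and Parp9; background 0.264%).

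Marker genes of several tissue compartments moved with this order. Myh11, the smooth muscle myosin, measured 1097, 528, 569 and 374 CPM in the DT-labelled and 384, 341, 849 and 713 CPM in the PBS-labelled libraries. It was highest in the library of each group where the 38 genes were lowest. The smooth muscle score (mean centred log2 CPM of 6 genes) was 0.54, -0.08, -0.08 and -0.34 in DT-labelled replicates 1, 3, 4 and 5 and -0.23, -0.36, 0.41 and 0.14 in PBS-labelled replicates 1, 2, 4 and 6, which, with DT-labelled replicates 3 and 4 nearly tied, is the reverse of the order of the 38 genes within each group. Between the groups, 0 of 6 passed the test or had an unadjusted p under 0.05, with a median log2 fold change of 0.07. The 8 decidual genes summed to 4229, 10910.0, 8884 and 11160.0 CPM in the DT-labelled and 12490.0, 13850.0, 8026 and 12050.0 CPM in the PBS-labelled libraries, the same order as the 38 genes within each group, and 0 of 8 passed or had an unadjusted p under 0.05. That order was a property of the sum, in which Prl8a2, a prolactin of the decidua, was large, at 687 CPM in DT-labelled replicate 1 and 2893 to 8960.0 CPM elsewhere. The decidual score, which weights the 8 genes equally, was -0.82, 0.24, 0.14 and 0.25 in the DT-labelled libraries, the order of the 38 genes, and -0.02, -0.08, 0.04 and 0.24 in the PBS-labelled ones, where replicate 2 was the lowest. Endothelial genes, 6 in the list, summed to 674, 955, 778 and 961 CPM in the DT-labelled and 1256, 1488, 690.2 and 1014 CPM in the PBS-labelled libraries. These sums again had the order of the 38 genes in each group. The median over the 6 genes, on the log2 scale against the PBS-labelled mean, did not in the DT-labelled libraries. It was -0.25, -0.15, -0.37 and -0.17 there, lowest in replicate 4. Of these 6, 0 were called and 1 was lower at an unadjusted p under 0.05 (3.98% of all genes). Among the PBS-labelled libraries, trophoblast and yolk sac scores were highest in replicate 2, then 1, 6 and 4, as the 38 genes were. Among the DT-labelled libraries both scores were highest in replicate 3, then 5, 4 and 1, so replicates 3 and 5 were exchanged. Between the groups the median log2 fold changes were -2.55 for trophoblast and -3.09 for yolk sac genes. Of the 6 and 7 genes tested, 0 were called, and 3 and 6 were lower at an unadjusted p under 0.05 (3.98% of all genes). The desmin gene Des is in both the decidual and the smooth muscle list. In bulk tissue, fewer cells of a type and less RNA per cell cannot be told apart, and the part of tissue composition in the difference between groups was not tested.

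**Figure D3:**
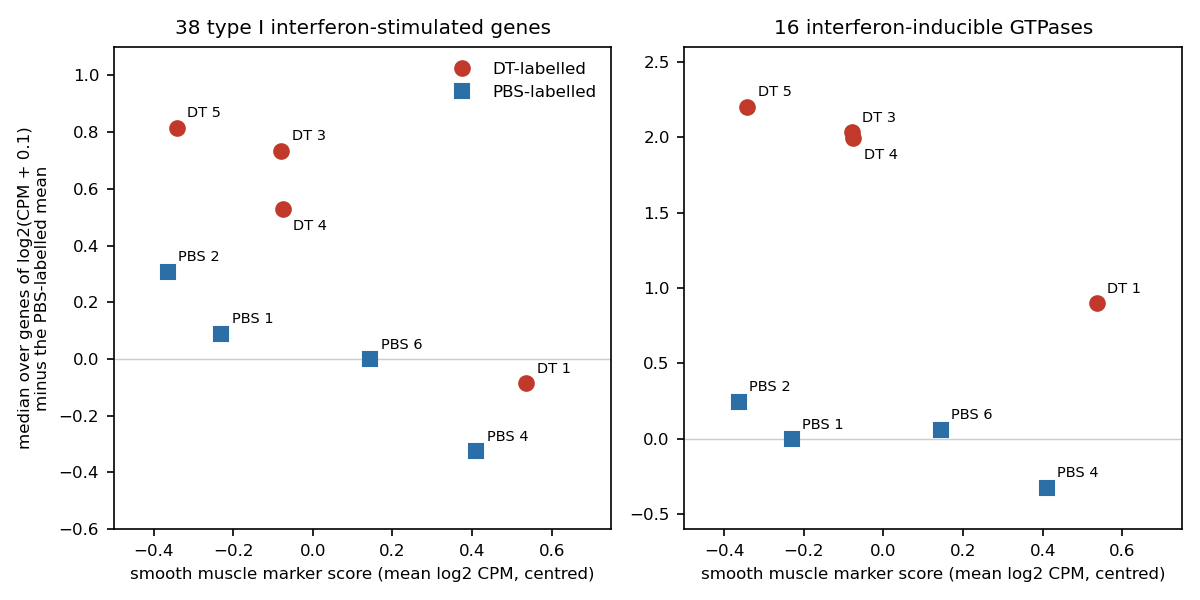
Median of log2(CPM + 0.1) over the 38 type I genes (left) and over 16 interferon-inducible GTPases (right), each minus the PBS-labelled mean (y axes, different ranges), against the smooth muscle score of the library (x axis), 1 point per library. On the left DT-labelled replicate 1 (score 0.54) lies at -0.09, among the PBS-labelled squares, and on the right it lies above all 4 of them.

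Fits with a marker score as a covariate, chosen after the data were seen, gave other counts of calls with nearly the same estimates. With the smooth muscle score as a covariate, edgeR called 21 of the 38 genes higher and 0 lower, against backgrounds of 3.77% and 2.58% of all genes, and the median log2 fold change was 0.49, as without it. Without DT-labelled replicates 1, 3, 4 and 5 in turn, this fit called 29, 20, 16 and 13 of the 38, against 7.12%, 2.85%, 1.21% and 0.693% of all genes. Without PBS-labelled replicates 1, 2, 4 and 6 in turn it called 12, 15, 20 and 22, against 0.867%, 1.91%, 3.14% and 2.28%. The 12 genes called in all 9 of these fits were Bst2, Ddx58, Dtx3l, Irf7, Irf9, Oas2, Oasl2, Parp14, Parp9, Rtp4, Sp100 and Zbp1. The share of all genes called in all 9 was not computed, and it cannot exceed the 160 genes called higher without DT-labelled replicate 5. The 9 fits share most of their libraries, and within each group the score runs in the reverse order of the 38 genes. Their agreement is therefore no independent support. With the decidual score as the covariate in place of smooth muscle, 2 genes were called, Sp100 and Oas2 (0.37%), with a median of 0.51.

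Some immune cell markers were high in other libraries than the 38 genes, and some followed their order. T cell genes, 12 in the list, summed to 22.6 to 29.2 CPM in the DT-labelled and 13.5 to 14.5 CPM in the PBS-labelled libraries, and 5 of 12 rose. The T cell receptor gene Cd3e was at 1.21 CPM in DT-labelled replicate 1, close to the other DT-labelled libraries, unlike most of the 38 genes. Macrophage genes summed to 460.3 to 487 CPM in the DT-labelled and 338 to 426 CPM in the PBS-labelled libraries, and 2 of 10 rose. Natural killer cell genes, led by the perforin gene Prf1 and the granzyme gene Gzmb, summed to 119 to 215 CPM in the DT-labelled and 169 to 497 CPM in the PBS-labelled libraries with 0 of 8 called (unadjusted p under 0.05 for 1 that was higher and 3 that were lower), and within each group their score had the same order as the 38 genes. Neutrophil genes, 7 in the list and 6 of them tested, summed to 11.1, 86.5, 54.8 and 101 CPM in the DT-labelled and 147, 164, 35.8 and 88.4 CPM in the PBS-labelled libraries, also in that order, with most of each sum from S100a8 except in DT-labelled replicate 1 (4.96 CPM of S100a8), and 0 of 6 were called (unadjusted p under 0.05 for 3 that were higher and 1 that was lower). Of 7 genes of conventional dendritic cells 1 rose, the chemokine receptor gene Xcr1 (log2 fold change 1.29 ± 0.17, SE; edgeR adjusted p = 0.0368). It measured 3.18, 2.30, 2.05 and 2.07 CPM in the DT-labelled and 0.926 to 1.07 CPM in the PBS-labelled libraries, with its highest value in DT-labelled replicate 1, where the 38 genes were low. Itgax, the other dendritic gene without overlap between the groups, did not pass (edgeR adjusted p = 0.225). Plasmacytoid dendritic cells, which can make much type I interferon, gave little signal: their defining marker Siglech was at 0.126 to 0.28 CPM in the DT-labelled and 0.114 to 0.586 CPM in the PBS-labelled libraries, and of the 9 genes of their list 0 were called and 2 were lower at an unadjusted p under 0.05. The part of these cells in the difference was not tested.

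The interferon pathway upstream of the 38 genes was described from a list of 53 ligands, receptors, signalling and feedback genes, of which 34 had enough counts to be tested. Of the 34, 1 was called higher and 0 lower (background 0.322% and 0.00441%). An unadjusted p under 0.05 was found for 11 that were higher and 0 that were lower (4.72% and 3.98% of all genes). The median log2 fold change was 0.10. Among the ligands, Ifnb1 had 0, 2, 0 and 3 counts in the DT-labelled and 1, 5, 0 and 1 counts in the PBS-labelled libraries. Of the 18 type I ligand genes listed, 2, Ifne and Ifnk, were tested and 8 had 0 counts in every library. No interferon alpha gene had more than 1 count in any library, and the interferon lambda genes Ifnl2 and Ifnl3 had 0 counts in every library. A count of 0 in 1 library still allows an expected count of up to about 3 in that library (upper 95% limit). These messages were therefore near or below detection at this depth. Ifne, the epsilon interferon of the female tract, measured 0.272, 1.27, 0.428 and 1.31 CPM in the DT-labelled and 2.63, 4.24, 0.576 and 1.60 CPM in the PBS-labelled libraries. It was highest in PBS-labelled replicates 1 and 2, and its log2 fold change of -1.47 ± 0.68 (SE) did not pass (edgeR adjusted p = 0.571).

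Ifng, the type II interferon, measured 0.148, 0.2, 0.214 and 0.291 CPM in the DT-labelled and 0.0762, 0.0619, 0.0661 and 0.0756 CPM in the PBS-labelled libraries. All DT-labelled values were above all PBS-labelled ones at these low levels. Another gene holds 16.2% of the windows of Ifng. The log2 fold change of 1.59 ± 0.27 (SE) did not pass by edgeR (adjusted p = 0.0746) and passed by DESeq2 (adjusted p = 0.0197). Irf1, a transcription factor induced by interferon-gamma, measured 43.5, 64.9, 65.7 and 71.7 CPM in the DT-labelled and 31.4, 31.9, 31.3 and 34.1 CPM in the PBS-labelled libraries. It rose 1.91-fold without overlap between the groups, a log2 fold change of 0.93 ± 0.14 (SE, 95% confidence interval 0.61 to 1.26; edgeR adjusted p = 0.0491), and the call was lost by limma voom (adjusted p = 0.0654), under RLE scaling and without any 1 library other than DT-labelled replicate 1.

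No receptor or adaptor gene passed with all libraries, and the differences of those named here were small. Ifnar1 and Ifnar2, the chains of the type I receptor, had log2 fold changes of -0.01 (95% confidence interval -0.13 to 0.11) and 0.21 (0.05 to 0.38), with edgeR adjusted p values of 0.942 and 0.524. Irf3, the factor activated downstream of the RNA sensors, and Tmem173, which encodes STING, the adaptor of DNA sensing, had 0.05 ± 0.07 and 0.22 ± 0.06 (SE; adjusted p = 0.742 and 0.36 by edgeR). In Ifnar2, Tmem173, Irf5, another interferon regulatory factor, and Il10rb, a chain of the interferon lambda receptor, every DT-labelled library lay above every PBS-labelled one (3.33% of all genes). Their log2 fold changes were 0.21, 0.22, 0.22 and 0.23. With the smooth muscle score as a covariate Il10rb was called (edgeR adjusted p = 0.0464), and 12.9% of its windows occur in another gene. Trex1, an exonuclease that clears DNA, was listed at 0 in every library, and 93.4% of its windows lie in Atrip, so its reads could not be placed. Samhd1, which depletes the nucleotides that viruses need, was at 325 CPM in DT-labelled replicate 1, against 1054 to 1351 CPM in the other DT-labelled and 932 to 1339 CPM in the PBS-labelled libraries.

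Other genes that interferons induce differed more between the groups. Of 16 interferon-inducible GTPases, which act against intracellular pathogens and respond strongly to interferon-gamma, 10 rose and 0 fell by edgeR (background 0.322% and 0.00441%), with a median log2 fold change of 1.84. Of 15 genes of class I antigen presentation, 4 rose and 0 fell, with a median of 0.95. The 38 type I genes, with 1 called and a median of 0.49, stood below both lists. All 3 values come from the same 8 libraries, and the difference between the lists was not tested. In DT-labelled replicate 1 the GTPase Iigp1 measured 96.8 CPM, below the 222 to 271 CPM of the other DT-labelled libraries and above the 35.1 to 44.7 CPM of the PBS-labelled ones. For the GTPases, 14 of 16 genes had no overlap between groups, and for the class I genes 8 of 15, against 5 of the 38 (background 3.33%). The 34 tested pathway genes had 9 without overlap, a larger share than the 38 genes, although their median was 0.10. A core match of GAAANNGAAA was in 10 of the 11 GTPase promoters with a window and in 3 of 13 class I promoters, beside 14 of 29 for the type I genes.

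**Figure D4:**
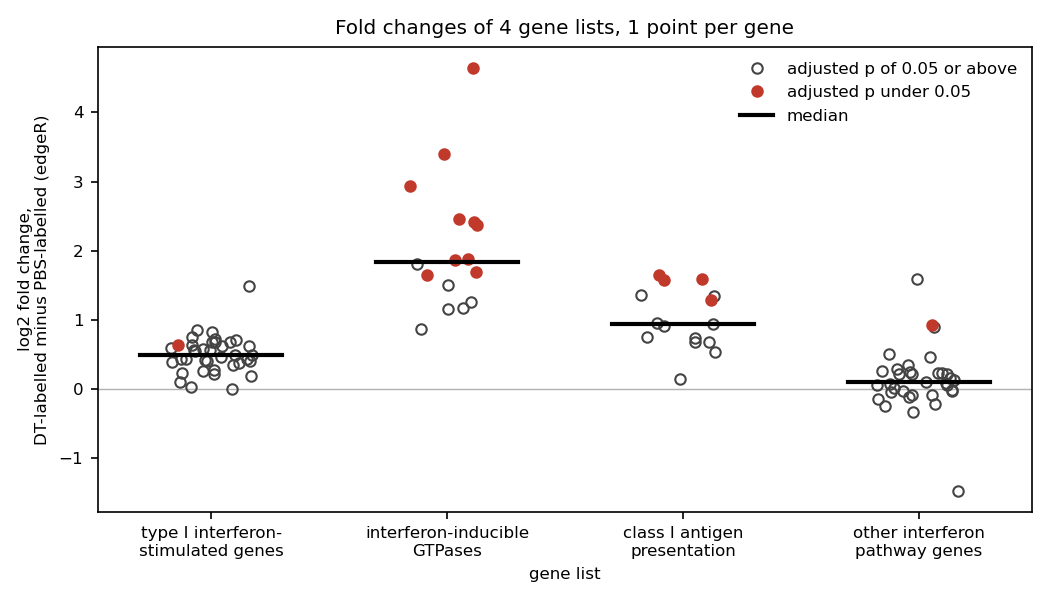
Log2 fold change (DT-labelled minus PBS-labelled, edgeR) of every tested gene in 4 lists, with 1 point per gene, red where the adjusted p is under 0.05 and a bar at the median. The type I genes cluster around 0.49, below the GTPases (1.84) and class I genes (0.95) and above the other pathway genes (0.10).

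Per length, the 38 genes covered a wide range of levels. TPM values, counts divided by exon length and scaled to a fixed library total, averaged over the 8 libraries, were highest for Bst2 (209 TPM), Isg15 (104 TPM) and Trim25 (76.96 TPM). They were lowest for Mx1 (2.77 TPM) and Oas3 (2.99 TPM). Sp100 was at 16.4 TPM and Zbp1 at 21.3 TPM, so neither the clearest nor the largest difference came from the most abundant message. Between libraries, Zbp1 ran from 5.82 to 43.4 TPM and Trim25 from 60.5 to 91.8 TPM. The lowest count of any of the 38 genes in any library was 224, for Ifit3b.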

How the data were processed

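Per the labels' protocols, RNA with integrity numbers of 8 to 10 was processed with kits named there as TotalPrep amplification and Kapa mRNA hyperprep, with their roles not set apart, and sequenced as paired reads of about 75 bases. Read counts of each Ensembl gene were deposited by the authors as whole numbers without normalization. The submitters' processing notes name Trimmomatic, HISAT2, featureCounts, SAMtools, DESeq2 and build GRCm38. Versions, annotation release and strand setting were not given in the sources used here. Of 49585 genes, 49326 matched GENCODE M21, and the other 259 held 0.076% of counts.

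Genes kept by filterByExpr (minimum count 10, minimum total 15) were scaled by TMM and compared, DT against PBS with no other term, by edgeR 4.0.16's robust quasi-likelihood test in R 4.3.3, two-sided, with Benjamini-Hochberg adjustment over all 22693 genes and a threshold of 0.05. DESeq2 1.42.0, limma 3.58.1, other scalings and filters, a replicate block and each library left out were alternatives. Scripts were tested on simulated counts. The members, lists, tests and naming rule were chosen with earlier results of these data known; library weights and marker-score covariates were added after seeing the data. Values in every library are given for the 1 or 2 members of each role with the smallest unadjusted p, the extremes, and those called by any tool. P-values set the difference between the groups against the spread between libraries within the groups, over these 8 libraries. Some pathway genes are not reported here.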

Additional observations from a re-analysis of the deposited data

Results flagged for a closer look

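In 7 of 144 groups of 4 libraries, taken over the members and the other pathway genes, 1 library lay far from the other 3 of its group by Dixon's criterion, and about 5% of groups would do so by chance. In DT-labelled replicate 1, Stat2 measured 65.5 CPM against 113 to 122 CPM in the rest of its group, Mx2 measured 4.12 CPM against 7.46 to 8.05 CPM, and Mavs, the adaptor of the RNA sensors, measured 38.3 CPM against 35.1 to 35.4 CPM. Both members were thus low in that library, and Mavs was high. In PBS-labelled replicate 4, Tyk2 measured 47.1 CPM against 59.5 to 60.3 CPM, and Samhd1 measured 932 CPM against 1272 to 1339 CPM. In the same library, the interferon lambda receptor chains Ifnlr1 and Il10rb measured 4.92 CPM against 3.92 to 4.06 CPM and 14.98 CPM against 13.6 to 13.8 CPM. The DT-labelled libraries of Samhd1 ranged more widely still, from 325 to 1351 CPM.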

How the results depend on the processing

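Over 29 alternatives the member median (log2 fold change) was always positive, from 0.35 to 0.90, and 1081 of 1102 values of the 38 members were positive. The 21 negative values belonged to Trim25 (10), Usp18 (6), Oasl1 (3), Ifit1 (1) and Oas3 (1). The count called higher, 1 with all libraries for the members and 1 for the pathway genes, was far less steady, and where no value shows otherwise the cause was not tested. Where members or pathway genes were called, the share of all genes called higher is the background given with that setting above. DESeq2 called 6 members and 2 pathway genes, with Trim25 at -0.0077. Limma voom called 1 member and 0 pathway genes, and RLE scaling 1 and 0, with Trim25 at -0.0058. Library size alone gave 7 and 2. Leaving out each library in turn gave 0 to 8 members and 0 to 3 pathway genes, with Trim25 between -0.0552 and 0.0627, the 8 and the 3 without DT-labelled replicate 1. Without PBS-labelled replicates 1 and 2, 0 members and 0 pathway genes were called. No low-count filter, a minimum mean of 1 CPM and a fit without robust each called 1 member, as with the settings used throughout.

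The settings chosen after the data were seen gave 8 members and 3 pathway genes with library weights, 2 and 2 with the decidual score, and 21 and 5 with the smooth muscle score. Leaving out 1 library from the smooth muscle fit gave, for DT-labelled replicates 1, 3, 4 and 5, 29, 20, 16 and 13 members, and for PBS-labelled replicates 1, 2, 4 and 6, 12, 15, 20 and 22. Pathway genes called higher in these fits numbered 8 without DT-labelled replicate 1, 4 without replicate 3, and 3, 5 and 4 without PBS-labelled replicates 2, 4 and 6. Pathway genes called lower numbered 1 without DT-labelled replicate 1 and 2 without replicate 3. With all libraries 2.58% of all genes were called lower in the smooth muscle fit, and that share was not computed with 1 library left out. Trim25 was at -0.0222, -0.0293 and -0.0493 without DT-labelled replicates 3 and 5 and PBS-labelled replicate 1. Without DT-labelled replicate 1 and PBS-labelled replicates 1 and 2 together, 4 members and 2 pathway genes were called and the member median was 0.897. By member median, these were the lowest DT-labelled library and the highest PBS-labelled ones, so their removal by itself widens the difference.

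Only the numbers 1 and 4 occur in both groups, and the deviations of the same-numbered libraries had correlations of -0.616 and 0.359. With so few shared numbers and opposite signs, it cannot be told whether the numbers pair the samples. With the number as a replicate block, fewer degrees of freedom were left, and every library whose number occurs in 1 group had a block to itself. The difference in this fit therefore rests on DT-labelled and PBS-labelled replicates 1 and 4 alone. It called 0 members and 0 pathway genes, and 1 member had an unadjusted p under 0.05 (0.903% of all genes were higher at that threshold). In the same fit 33 of 38 members were positive, the member median was 0.35 and Trim25 was at -0.0487. Most interferon ligand genes had few or no counts, and whether depth or absence of the message accounts for this was not tested. The lowest count of a member in any library was 224.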
